A study of Homo sapiens with 6 samples.

Results

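METTL16 knockout was compared with control in NOMO-1, an established human acute myeloid leukaemia cell line of monocytic type, over every gene of the deposited expression table. The comparison set the 2 libraries labelled sgMETTL16+EV, here called knockout, against the 2 labelled sgNS+EV, here called control, and took in all 15059 genes of the table, of which 12734 passed a filter on low values and were tested. That filter asked for a value of at least 1 in at least 2 libraries of any group. A gene low in control could thus enter through the knockout libraries alone, and its rise then follows in part from the filter. Control cells carried a guide labelled sgNS and an empty vector (EV), and knockout cells a guide against METTL16 and the same empty vector. Both groups were infected with lentivirus and selected for 1 to 2 weeks in medium holding 2 µg/ml puromycin. The series holds 6 libraries in 3 groups. The other group (sgMETTL16+OE-METTL16, here called rescue, 2 libraries) carried the guide against METTL16 together with a vector overexpressing METTL16, and serves here to share the estimate of spread between libraries, with its values set beside a few genes. The labels do not say whether knockout cells were 1 clone or a pool, or whether replicates came from separate cultures; the p-values therefore speak only of the spread among libraries, which may be technical. Total RNA was depleted of ribosomal RNA before sequencing, so RNAs without a poly(A) tail, such as histone messages and small nucleolar RNAs, are in the table.

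METTL16 is an RNA methyltransferase that places N6-methyladenosine in a short sequence held in a particular fold. Its best known substrates are the U6 small nuclear RNA, which pairs with the start of introns in the spliceosome, and hairpins in the 3' untranslated region of the MAT2A message. MAT2A encodes the enzyme that makes S-adenosylmethionine, the methyl donor of most cellular methylation, and METTL16 is known to promote splicing of the last MAT2A intron when that donor is scarce.

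The 9 bases of this site, shown in capitals below (TACAGAGAA in DNA letters), occurred 5 times in the longest MAT2A transcript of GENCODE release 29 (ENST00000306434.7, 2819 bases, coding part ending at base 1311), more often than in any other tested protein-coding gene. All 5 lie on chromosome 2, plus strand of GRCh38, in exon 9 of 9 and in the 3' untranslated region, and are shown 5′ to 3′ with their flanks because they are the textbook target of the enzyme removed here:
site 1, bases 85543812 to 85543820: tggcgtaggcTACAGAGAAgccttcaagct
site 2, bases 85544599 to 85544607: tgtgatgtcaTACAGAGAAgtcacagggca
site 3, bases 85544784 to 85544792: ctggtgtagcTACAGAGAAaccagcttcct
site 4, bases 85544899 to 85544907: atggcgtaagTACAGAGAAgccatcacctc
site 5, bases 85545122 to 85545130: gctggtgtggTACAGAGAAgccagcttgtt

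Values of 2 libraries are given in the order of their replicate numbers, and "from" and "to" stand for control and knockout. The targeted gene itself (METTL16, ENSG00000127804.12, chromosome 17, 2405562 to 2511891, minus strand) had a signal of 9.89 and 9.63 in the control libraries and of 6.05 and 5.83 in the knockout libraries. Signal here is the deposited RSEM abundance, which is scaled for transcript length; no source used here says whether it is TPM or FPKM. The groups did not overlap, and knockout stood at 0.609 times the control level (log2 change -0.63, SE 0.082, adjusted p = 4.76e-05), so transcripts of the edited gene were lower but still present. The rescue libraries held 12.3 and 12.1. MAT2A (chromosome 2, 85539165 to 85545280, plus strand) went from 140.2 and 132 in control to 77.6 and 78.1 in knockout (log2 change -0.80, SE 0.055, adjusted p = 2.00e-07). Genes with the 9 bases moved in both directions. Of 592 tested protein-coding genes with at least 1 copy in a transcript, MAT2A included, 130 rose, 95 fell and the median log2 change was 0.04, and of 10408 without a copy 2651 rose, 1379 fell and the median was 0.08. BTRC, an adaptor of a ubiquitin ligase and named here because it holds 3 copies, the next highest number, was at 0.06 (adjusted p = 0.596).

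The signal summed to 597160 to 681928 per library, and the 4 most abundant RNAs took 32.7% to 37.7% of each sum. The total number of reads per library is not given, so the depth behind a value is unknown and no counting interval is given. Control replicate 2 stood apart: its median log2 level lay 0.11 below the mean of the 6 library medians, while the other 5 lay between 0.0022 below and 0.041 above it. Markers of the monocytic lineage such as CD33 (30.0 to 37.3) and CD68 (29.7 to 63.4) were present in every library. So was SPI1, the myeloid master transcription factor PU.1, at 35.4 to 51.7. CD14 and MPO have no row in the table. Of the 10 listed markers with values 7 rose and 0 fell, beside 23.2% risen and 13.4% fallen over all genes tested. These are calls made on both scales described below. On centred values 1 marker was called lower, beside 25.2% of all genes tested. CSF1R, a receptor of macrophages, was low at 0.817 and 0.881 in control and 2.91 and 2.59 in knockout. ITGAM (5.65 and 4.79 in control, 5.08 and 4.54 in knockout) and CD4 (75.9 and 68.5, then 69.6 and 66.9) did not rise. Of the marker lists for other cells, 5 of 12 lymphoid, 5 of 11 erythroid and megakaryocytic, 3 of 10 epithelial and kidney, and 1 of 10 fibroblast and endothelial markers had a value, nearly all under 6 in every library. An exception was NKG7, a granule membrane protein of killer cells, at 128 and 112 in control and 155 and 148 in knockout. PECAM1 was the other, an adhesion receptor of endothelium and also of monocytes, at 13.99 and 12.5 in control and 27.6 and 27.4 in knockout. Both rose, as did CD2, a T cell receptor partner, from 0.740 and 0.636 to 3.02 and 2.86. With rescue libraries at 0.794 and 0.640, CD2 passed the filter on low values through the knockout libraries alone. Its rise is therefore built in. Summed over the lymphoid list the signal was 132 and 116 in control and 162 and 155 in knockout, and over the erythroid and megakaryocytic list 13.7 and 12.1 and then 14.8 and 14.8; the part of such cells in the results was not tested.

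A test on values as deposited called 3333 of 12734 genes higher in knockout (26.2%) and 1723 lower (13.5%) at an adjusted p under 0.05. After centring, in which the median log2 level of each library is subtracted so that the libraries share a midpoint, 3080 genes were higher (24.2%) and 3208 lower (25.2%). Centring lowers the log2 change of every gene by the same 0.069, and the rises thus made up 65.9% of the calls on deposited values and 48.98% on centred ones. The median log2 change over all genes was 0.067 as deposited and -0.0022 centred. No gene was called in opposite directions on the scales. Below, a gene rose or fell only if it passed 0.05 in the same direction on both: 2956 genes rose (23.2%) and 1707 fell (13.4%). A further 1501 genes were called lower only after centring and 377 higher only as deposited, and these are given as counts. Among genes called on both scales, 803 of the risen and 624 of the fallen changed by under 0.3 on the log2 scale, while 76 rose and 22 fell by at least 1. Leaving out 1 library moved some of these counts by over 1.5 times: 1723 genes rose on both scales without knockout replicate 1, and 1107 fell without knockout replicate 2. The share of rises among calls on deposited values was 77.2% without control replicate 1 and 51.3% without control replicate 2, the library with the low median.

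**Figure D1:**
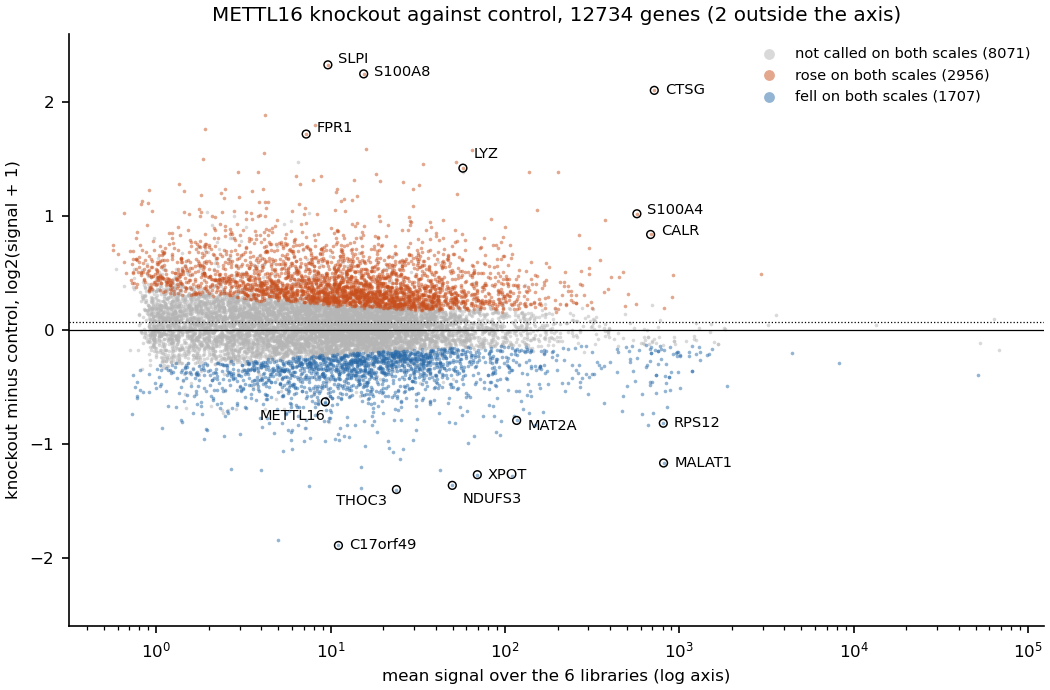
Each point is 1 of the 12734 genes tested, with its mean signal over the 6 libraries on a log axis and its change in knockout against control on the log2(signal + 1) scale; the dotted line is the median change of 0.067. The 76 rises of at least 1 outnumber the 22 falls of that size, and named genes are ringed.

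Small RNAs, genes whose higher group averaged under 5 and genes whose control and knockout libraries overlapped were left out of the order by size. The largest rises among the rest were in proteins that neutrophils and monocytes hold in granules or, as calprotectin, mainly in the cytosol. SLPI, a secreted inhibitor of neutrophil proteases, went from 3.41 and 3.16 in control to 20.5 and 20.5 in knockout (log2 change 2.33, SE 0.091, adjusted p = 9.55e-10). S100A8, which pairs with S100A9 as the calcium-binding protein calprotectin, was at 5.21 and 5.36 in control and 30.5 and 27.3 in knockout (log2 change 2.25). S100A9 was at 17.6 and 19.9 in control and 52.6 and 53.1 in knockout (1.45). CTSG, which encodes cathepsin G, was the most abundant of these, with 324 and 304 in control and 1364 and 1340.00 in knockout, 4.30 times the control level. In each of these genes both knockout libraries lay far above both controls, and the rescue libraries lay between, at 492 and 482 for CTSG. Outside this group, DHRS9, a dehydrogenase that acts on retinol, had 1.46 and 1.66 and then 8.93 and 8.02 (log2 change 1.89). TP53INP2, a nuclear protein with a role in autophagosome formation, had 3.76 and 3.68 in control and 15.4 and 15.5 in knockout (1.80). CCNA1, a cyclin found in germ cells and in myeloid leukaemia, stood at 8.76 and 8.43 in control and at 27.8 and 27.97 in knockout (1.59). Further down this order came LILRA5, an activating receptor of monocytes (1.56), SERPINI1, a serpin best known from neurons (1.39), FAP, a surface protease of fibroblasts (1.39), and CHI3L1, a secreted chitinase-like protein with 129 and 119 in control and 323 and 324 in knockout. MS4A7, a membrane protein of macrophages (1.35), CLEC5A, a lectin receptor of myeloid cells (1.32), and CEACAM4, an adhesion molecule of granulocytes (1.32), completed the 20 largest rises with the ribonucleases, ELANE, LYZ and FPR1 described below.

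Granule ribonucleases rose as a trio of near copies. RNASE3, the eosinophil cationic protein, went up from 36.3 and 34.2 in control to 111 and 103 in knockout. RNASE2, the eosinophil-derived neurotoxin, rose from 84.2 and 78.9 to 208 and 221. ECRP, a related sequence, rose from 11.6 and 10.2 to 29.4 and 29.96. Their log2 changes were 1.58, 1.38 and 1.37, and since reads of near-identical copies can be assigned to the wrong one, the 3 values are not independent. RNASE2 and RNASE3 lie next to each other on chromosome 14, and their promoters from RefSeq (GRCh38.p14, plus strand, 250 bases before to 50 after the start) are shown because both hold TTGCNNAA, the core that C/EBP transcription factors of myeloid cells are known to bind, in capitals:
RNASE3, chr14:20891135-20891434: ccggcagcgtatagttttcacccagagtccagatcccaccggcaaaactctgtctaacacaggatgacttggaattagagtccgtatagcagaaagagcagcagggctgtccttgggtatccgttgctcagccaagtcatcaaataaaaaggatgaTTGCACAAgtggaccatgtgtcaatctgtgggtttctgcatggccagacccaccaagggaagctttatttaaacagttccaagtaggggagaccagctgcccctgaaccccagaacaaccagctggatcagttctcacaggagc
RNASE2, chr14:20955237-20955536: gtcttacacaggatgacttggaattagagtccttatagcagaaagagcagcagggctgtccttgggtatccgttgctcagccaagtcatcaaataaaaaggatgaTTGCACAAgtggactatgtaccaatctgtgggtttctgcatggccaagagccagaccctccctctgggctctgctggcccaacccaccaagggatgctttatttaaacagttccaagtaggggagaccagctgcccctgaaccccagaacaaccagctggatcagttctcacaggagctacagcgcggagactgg

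On either strand, TTGCNNAA occurred in 671 of 9121 promoters of tested genes (7.36%). It was in 4 of the 7 promoters found for the tested azurophil granule genes, among them AZU1, which was not called. Among genes that rose by at least 1 it was in 11 of the 49 found (22.4%). Among genes that fell by at least 0.8 it was in 4 of 40 (10%). For all risen genes the share was 7.74%, and for all fallen genes 7.76%. The RNASE2 and RNASE3 windows are near copies, so their matches are not independent. Of the other motifs counted, TGATGCAA was in 1 of those 49, 1 of the 40 and 0.493% of all promoters. GAGGAAGT was in 2 of the 49, 3 of the 40 and 2.69% of all. A match describes the letters of this window and shows no binding.

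**Figure D2:**
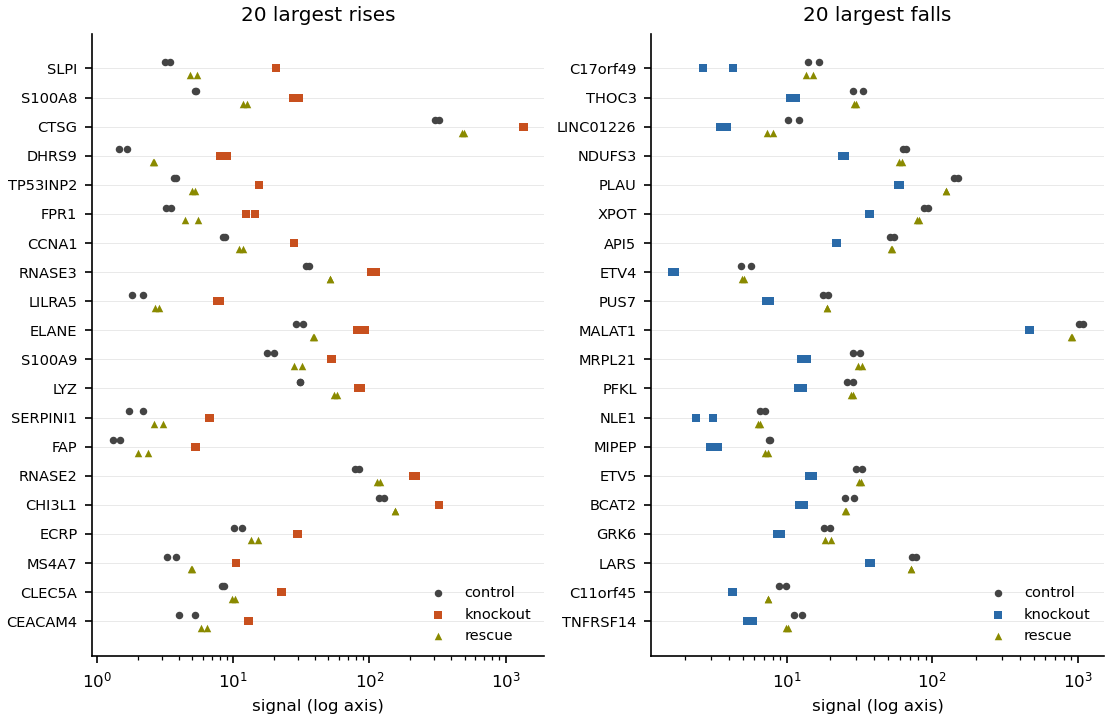
Signal in each library, on log axes, of the 20 largest rises (left) and 20 largest falls (right) among genes called on both scales, leaving out small RNAs and genes whose higher group averaged under 5. Circles are control, squares knockout and triangles rescue. Only genes whose control and knockout libraries do not overlap were chosen, so the gap between circles and squares follows from the selection.

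Genes were grouped in 60 lists by known function and in 13 classes by symbol. The lists and their members were chosen with earlier results of these data known, so a high share of calls in a list is partly a product of that choice. Each count of calls on both scales below stands beside 23.2% risen and 13.4% fallen over all genes tested. Counts on centred values stand beside 24.2% risen and 25.2% fallen. In bulk RNA a change in the share of cells of one kind and a change in RNA per cell cannot be told apart. Of 12 tested azurophil granule proteins 9 rose and none fell, with a median log2 change of 1.17. ELANE, neutrophil elastase, rose from 32.4 and 28.99 to 92.5 and 81.2. LYZ, lysozyme, rose from 30.9 and 31.1 to 81.9 and 87.2. Among those not called, AZU1, the antimicrobial protein azurocidin, had 91.7 and 80.9 in control and 106 and 89.05 in knockout (log2 change 0.17, adjusted p = 0.102). CTSC, which activates granule proteases, had 82.5 and 81.6 in control and 86.05 and 83.8 in knockout (0.05). AZU1 lies in the same gene cluster as ELANE, and its control and knockout libraries overlapped. Of 12 secondary granule, S100 and annexin genes 11 rose (median 0.77). S100A4 went up from 409 and 393 to 826 and 803. ANXA1, a phospholipid-binding protein that limits inflammation, rose from 35.01 and 35.4 to 81.1 and 82.4. ANXA2 rose from 104 and 103 to 218 and 214. S100P, a calcium-binding protein, was not called, at 124 and 119 in control and 129 and 119.5 in knockout (0.03, adjusted p = 0.723).

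Receptors that monocytes and neutrophils use to sense bacteria and chemokines rose more often than they fell. Of 16 tested chemokine and chemoattractant receptors 14 rose and none fell (median 0.60; 14 and 1 on centred values). FPR1, the receptor for formylated bacterial peptides, had 3.50 and 3.22 in control and 14.5 and 12.3 in knockout. CCR2, which draws monocytes to inflamed tissue, had 0.550 and 0.554 in control and 2.84 and 2.70 in knockout (log2 change 1.28). Its control values lay under the filter's limit of 1, so its entry may rest on the knockout libraries. CX3CR1, the fractalkine receptor, had 2.91 and 2.65 in control and 6.34 and 6.75 in knockout (1.00). CXCR2, a receptor for interleukin-8, had 2.52 and 2.44 in control and 5.72 and 6.32 in knockout (1.01). Signals of this size are low: when genes averaging under 5 were left out, 8 receptors were called. Among 27 monocyte and macrophage surface receptors 14 rose and 1 fell (median 0.37). LILRA2, a sensor of cleaved immunoglobulins, rose from 17.02 and 15.2 to 42.5 and 39.5. CD68, a scavenger receptor of macrophage lysosomes, rose from 33.9 and 29.7 to 63.4 and 62.7. FCAR, the receptor for IgA, rose from 21.98 and 20.5 to 35.7 and 35.99. The member that fell was ITGB2, the shared beta chain of leukocyte integrins, from 151 and 137 to 111 and 108. SIRPA, which recognises the CD47 signal on healthy cells, was not called, at 97.7 and 89.6 in control and 104 and 101 in knockout (0.13, adjusted p = 0.0858).

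Pattern recognition receptors and their adaptors rose in 16 of 26 members and fell in 2 (median 0.29). CASP1, the protease that matures interleukin-1 beta, went up from 8.19 and 7.68 to 19.1 and 18.6. NLRC4, an inflammasome sensor, went up from 2.26 and 2.39 to 6.41 and 7.31. PYCARD, the inflammasome adaptor ASC, rose from 25.5 and 25.6 to 43.5 and 39.4. TMEM173, the DNA-sensing adaptor STING, was at 26.4 and 23.01 in control and 42.7 and 38.8 in knockout. In the opposite direction IRAK1, a kinase that relays signals from Toll-like receptors, fell from 165 and 154 to 111 and 102. IRAK3, which damps the same pathway, fell by 0.23 on the log2 scale, a call that was lost without any 1 library other than control replicate 2 (adjusted p up to 0.229).

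Secreted mediators moved both ways. Of 15 chemokines and cytokines 6 rose and 4 fell (median 0.14). IL1RN, which blocks the interleukin-1 receptor, rose from 1.70 and 2.35 to 5.95 and 6.09. TNFSF10, the death ligand TRAIL, rose from 1.51 and 1.34 to 4.21 and 3.71. VEGFA, a growth factor for vessels, fell from 72.6 and 66.7 to 46.7 and 44.9. IL32, a cytokine of immune cells, fell from 241 and 226 to 176 and 162. CCL5, a chemokine for T cells and monocytes, fell from 38.3 and 37.8 to 29.04 and 28.4. Most risen members were low, and 1 was called when genes averaging under 5 were left out. In the complement and coagulation list 6 of 12 rose (2 when genes averaging under 5 were left out) and 2 fell (4 on centred values). C1QA, a chain of complement C1q, went up from 0.333 and 0.673 to 4.45 and 3.71, and its entry to the test may likewise rest on the knockout libraries. CFD, complement factor D, went up from 11.3 and 11.1 to 22.7 and 21.3. PLAU, the urokinase plasminogen activator, had the largest fall of the list, from 150.4 and 141 to 60.5 and 58.3 (log2 change -1.28, SE 0.055, adjusted p = 2.25e-09). Of 9 genes of the phagocyte oxidase 6 rose and none fell (median 0.26), among them CYBA, the small membrane subunit (90.5 and 84.7 to 147 and 132). CYBB, which encodes the catalytic subunit, was low and not called, at 0.874 and 0.810 in control and 1.16 and 1.01 in knockout (0.18, adjusted p = 0.205).

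Haematopoietic transcription factors rose in 19 of 29 tested members and fell in 3 (median 0.32). NFE2, a factor of myeloid and megakaryocytic cells, went up from 9.72 and 8.37 to 21.6 and 21.7. KLF4, which promotes monocyte differentiation, rose from 2.78 and 2.32 to 6.76 and 6.63. IRF8, which directs progenitors to the monocyte fate, rose from 27.03 and 24.7 to 39.1 and 38.6. ID2, an inhibitor of basic helix-loop-helix factors, rose from 40.97 and 36.1 to 68.8 and 74.3. All 3 that fell changed by under 0.25: ETV6 at -0.23, CEBPB at -0.24 and CEBPG at -0.19. None of these falls was called in every fit with 1 library left out: all were lost without either knockout replicate (adjusted p up to 0.117, 0.0857 and 0.233), and those of CEBPB and CEBPG also without control replicate 1, where CEBPB stood at -0.14. LYL1, a leukaemia-linked factor of progenitors, was not called at 50.6 and 46.7 in control and 54.6 and 47.2 in knockout.

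In the actin cytoskeleton list 33 of 42 members rose, 2 fell (33 and 4 on centred values), and the highest change was 0.76 with a median of 0.32. MYL6, a light chain of myosin, rose from 244 and 232 to 411 and 375. CORO1B, a coronin of the leading edge, rose from 10.5 and 9.68 to 17.7 and 17.8. The fallen members were CAPG, a filament-capping protein, from 643 and 592 to 536 and 505, and EVL, a filament elongation factor, at -0.23, which lost its call without control replicate 1 or knockout replicate 2 (adjusted p up to 0.204). TMSB4X, which binds free actin and is the most abundant member, was at 1760.4 and 1715 in control and 1701 and 1792 in knockout (0.01, adjusted p = 0.93). Of 25 tubulin and chaperonin genes 5 rose and 4 fell (median 0.13; 5 and 8 on centred values); the rises there numbered 3 without control replicate 1 or knockout replicate 1.

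Lysosomal hydrolases and membrane proteins rose in 26 of 40 members and fell in 6 (median 0.36), and this number of rises was 25 or 26 when any 1 library was left out. CD63, a membrane protein of lysosomes and azurophil granules, rose from 83.1 and 83.9 to 146 and 135. CTSZ, a cathepsin, rose from 75.2 and 69.2 to 124 and 115. GLA, alpha-galactosidase, rose from 35.9 and 32.1 to 62.4 and 58.1. NEU1, a sialidase, rose from 37.3 and 34.8 to 61.3 and 57.8. GUSB, beta-glucuronidase, fell from 43.96 and 40.1 to 31.8 and 29.4, and TFEB, the transcription factor that drives lysosomal genes, fell by 0.18 on the log2 scale, with an adjusted p up to 0.31 when 1 library was left out. CTSD, the most abundant lysosomal protease here, was at 1322 and 1242 in control and 1320.3 and 1269.6 in knockout (0.01, adjusted p = 0.85). Of 15 genes of the vacuolar proton pump, which acidifies lysosomes, 11 rose and none fell (median 0.24; 11 and 1 on centred values), among them ATP6V0D1 (26.9 and 23.8 to 41.2 and 38.6) and ATP6V0E1 (70.99 and 66.9 to 94.8 and 95.6). Autophagy genes rose in 13 of 29 and fell in 3 (median 0.19); beside TP53INP2 these included ATG2A, a lipid transfer protein (0.88), and the cargo receptor SQSTM1 (85.2 and 78.6 to 107 and 99.4). With 1 library left out, the rises numbered 6 without knockout replicate 1 for the pump and 8 without knockout replicate 1 and 7 without knockout replicate 2 for autophagy. The falls numbered 3 without control replicate 1 and 2 without knockout replicate 2 among lysosomal genes, the TFEB call being lost without either of those 2 libraries, and 1 without control replicate 1 or knockout replicate 2 and 0 without knockout replicate 1 in autophagy.

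Genes of each step of the early secretory pathway, from translocation to degradation and export, held more rises than falls. Of 23 genes of the translocon and signal peptide processing 12 rose and 3 fell (median 0.22; 12 and 5 on centred values), for example SSR2, a translocon-associated protein, from 119 and 113 to 183 and 169.6. Of 26 genes of folding in the endoplasmic reticulum 17 rose and 1 fell (median 0.30). The lectin chaperone CALR rose from 509 and 505 to 923 and 889. The prolyl isomerase PPIB rose from 209.8 and 191 to 360.3 and 352. The disulfide isomerase PDIA3 rose from 142 and 137 to 211 and 209. HSPA5, the chaperone BiP, rose from 101 and 97.3 to 146 and 141. DNAJC10, a disulfide reductase, fell from 43.5 and 41.7 to 31.98 and 32.3. HYOU1, a large chaperone, was not called at 40.3 and 36.2 in control and 39.8 and 37.5 in knockout. N-glycosylation genes rose in 18 of 37 and fell in 4 (median 0.21; 18 and 7 on centred values). DDOST, of the oligosaccharyltransferase, rose from 148 and 142 to 196 and 192, and ALG8, a glucosyltransferase, fell from 21.2 and 18.7 to 11.1 and 11.7. Degradation of misfolded proteins had 13 of 20 risen and 2 fallen (median 0.27). There, the lectin OS9 rose from 44.04 and 40.9 to 78.9 and 74.8. UFD1L, a partner of the VCP segregase, went up from 15.7 and 13.8 to 29.03 and 28.5. With 1 library left out, rises numbered 7 without knockout replicate 1 for the translocon and 11 without control replicate 2 for N-glycosylation. Falls numbered 5 without control replicate 2 for the former and 2 without control replicate 1 or knockout replicate 1 for the latter.

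Vesicle coats and cargo receptors of COPI and COPII rose in 21 of 34 members and fell in 2 (median 0.23). LMAN2, a cargo lectin, went up from 42.1 and 38.6 to 74.2 and 65.1. GBF1, which loads the COPI coat, went up from 28.1 and 24.6 to 42.3 and 39.7. COPB2, a coat subunit, went up from 91.8 and 89.99 to 123 and 118. COPG2, one of a pair of gamma subunits, fell from 9.06 and 8.60 to 4.40 and 4.45. Endosomal sorting and fusion genes rose in 22 of 50 and fell in 1 (median 0.18; 22 and 6 on centred values). The fusion protein STX4 rose from 14.4 and 12.8 to 24.9 and 24.8. Its partner VAMP8 rose from 101 and 97.1 to 138 and 132. STXBP2, which is needed for granule release, rose from 26.6 and 26.3 to 37.6 and 37.2. With 1 library left out, the rises numbered 13 without knockout replicate 1 for the coats and 14 without knockout replicate 1 for endosomal genes. Falls of the coats numbered 1 without knockout replicate 1, and endosomal falls 4 without control replicate 2 and 0 without knockout replicate 2.

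**Figure D3:**
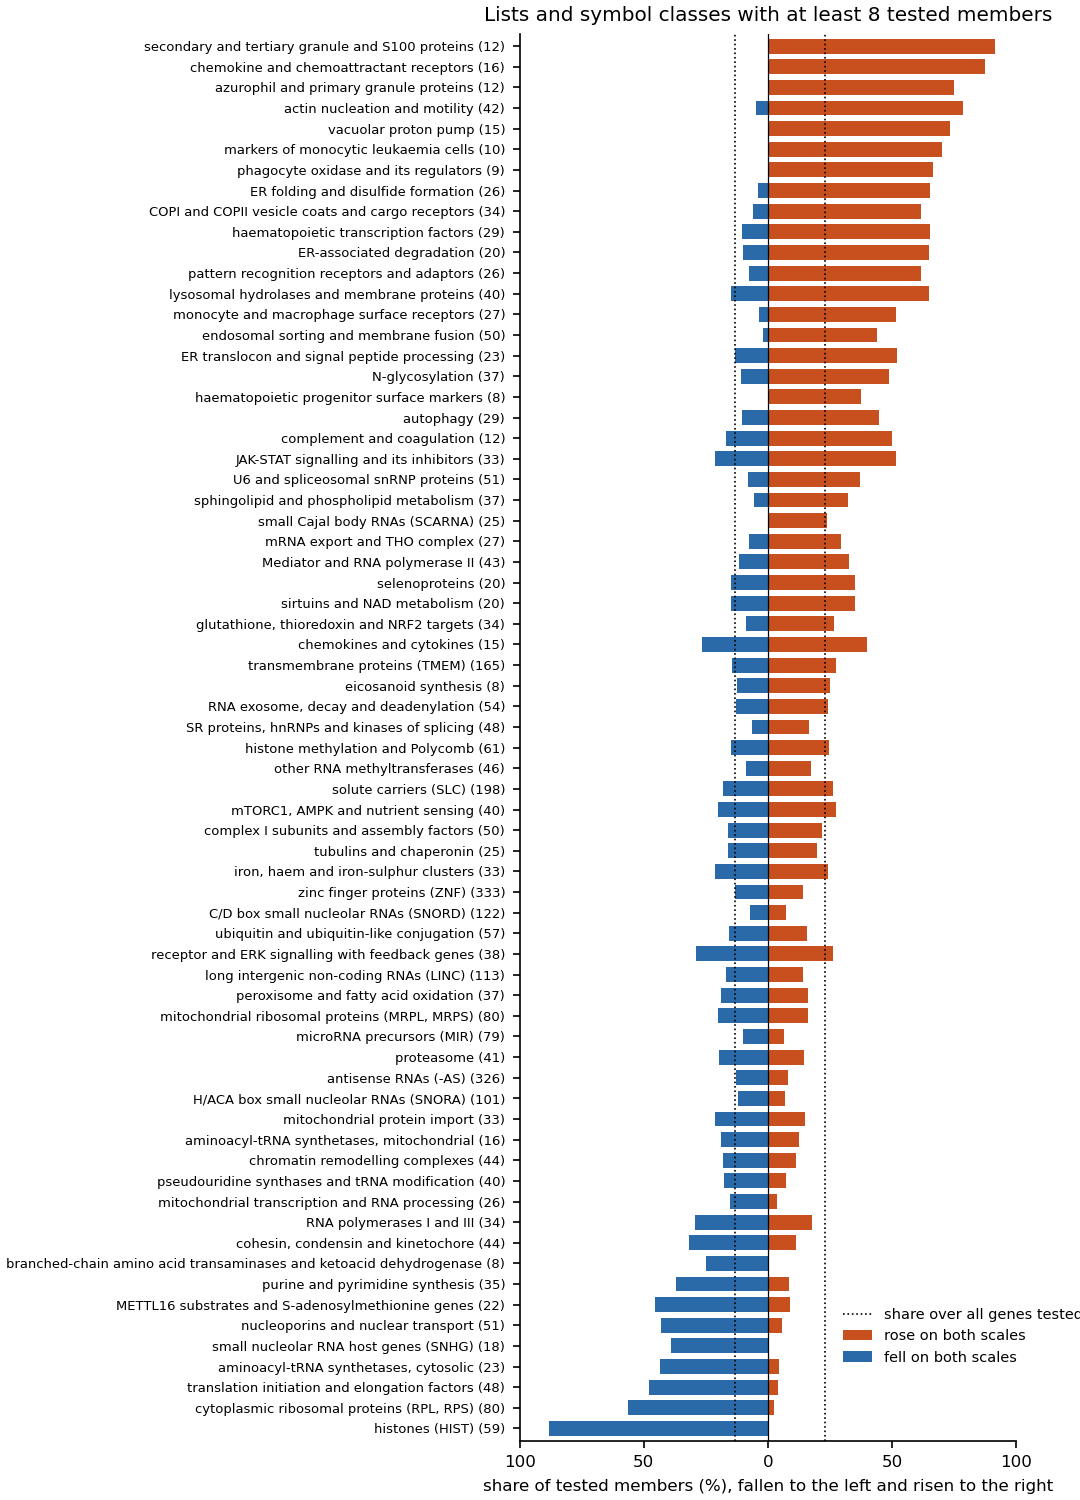
Bars give the share of tested members of each list or class that rose (right, orange) or fell (left, blue) in knockout on both scales, with the number tested in parentheses. Dotted lines mark 23.2% risen and 13.4% fallen over all genes; granule and receptor lists stand at the top and histones, ribosomal proteins and translation factors at the bottom.

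Cytokine receptors and their kinases were more often risen than fallen, whereas the ERK pathway moved both ways. Of 33 genes of JAK-STAT signalling 17 rose and 7 fell (median 0.21). IL6R, the interleukin-6 receptor, rose from 48.5 and 44.7 to 77.6 and 74.8. JAK2, a receptor kinase, rose from 4.32 and 4.03 to 7.67 and 7.55. STAT6, which relays interleukin-4 signals, rose from 29.2 and 25.5 to 42.4 and 39.7. JAK3 fell from 13.7 and 12.1 to 10.3 and 10.3, a call lost without either knockout replicate (adjusted p up to 0.0584). With 1 library left out the rises numbered 10 without either knockout replicate, and the falls 4 without control replicate 1, 3 without knockout replicate 1 and 2 without knockout replicate 2. In the ERK list 10 of 38 rose and 11 fell (median 0.05). ETV4 and ETV5, transcription factors switched on by ERK, fell from 5.69 and 4.85 to 1.70 and 1.62 and from 32.7 and 30.2 to 15.1 and 14.3, with log2 changes of -1.23 and -1.05. SPRED2, an inhibitor induced by the same pathway, fell from 21.5 and 19.03 to 12.2 and 12.2. MYC, the growth transcription factor, fell from 95.7 and 87.1 to 64.3 and 65.3. Rises of this list numbered 6 without control replicate 2 or knockout replicate 1 and 5 without knockout replicate 2, and falls 7 without control replicate 1 or knockout replicate 2. Among 40 genes of mTORC1 and nutrient sensing 11 rose and 8 fell. DDIT4, a stress-induced inhibitor of mTORC1, had the largest fall, from 122 and 116 to 70.3 and 65.4. LAMTOR2, which anchors mTORC1 at the lysosome, had the largest rise, from 33.6 and 30.02 to 59.2 and 52.1. Its rises numbered 5 without control replicate 2 or knockout replicate 2 and 4 without knockout replicate 1, and its falls 5 without control replicate 1 and 4 without knockout replicate 2.

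The largest falls, ordered by the same rule, were spread over genes of unlike function. C17orf49, a chromatin protein whose gene overlaps a read-through with RNASEK, went from 16.7 and 14.01 in control to 2.68 and 4.24 in knockout (log2 change -1.89, SE 0.14, adjusted p = 3.04e-07), with rescue libraries at 13.6 and 15.2. THOC3, a subunit of the THO complex that couples transcription to messenger RNA export, fell from 33.4 and 28.5 to 11.6 and 10.5. NDUFS3, a core subunit of respiratory complex I, fell from 66.3 and 62.95 to 24.99 and 23.95. XPOT, the exporter of transfer RNAs from the nucleus, went down from 93.97 and 88.5 to 36.8 and 37.6. These lay at 0.358, 0.379 and 0.407 times the control level. API5, an apoptosis inhibitor, had 54.9 and 51.4 in control and 21.7 and 22.3 in knockout. PUS7, a pseudouridine synthase, had 19.1 and 17.7 in control and 7.64 and 7.24 in knockout. MALAT1, a long RNA of nuclear speckles with a hairpin end that METTL16 is known to bind, had 1092 and 1024 in control and 465 and 474 in knockout. MRPL21, of the mitochondrial ribosome (-1.13), PFKL, the liver form of phosphofructokinase (-1.07), NLE1, a ribosome assembly factor (-1.06), and MIPEP, a mitochondrial peptidase (-1.05), also fell. BCAT2, the mitochondrial branched-chain aminotransferase, went down from 29.1 and 25.2 to 13.2 and 12.1. Its cytosolic counterpart BCAT1 fell from 22.5 and 20.97 to 14.5 and 14.999. Of the other 6 tested members of that enzyme list none was called on both scales and 2 were called lower on centred values alone, for example BCKDHA, of the ketoacid dehydrogenase, at 31.99 and 26.1 in control and 31.3 and 30.6 in knockout. GRK6, a receptor kinase (-1.02), C11orf45 (-0.98), TNFRSF14, a lymphocyte receptor (-0.97), and the long RNA LINC01226 (-1.37) completed the 20 with PLAU, ETV4 and ETV5 above and LARS below.

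Genes that load, carry and use transfer RNAs fell more often than they rose. Of 23 cytosolic aminoacyl-tRNA synthetase genes 10 fell and 1 rose (median -0.14), and 16 were called lower after centring. LARS, which charges leucine, fell from 77.2 and 72.9 to 37.7 and 36.6 (log2 change -0.99, adjusted p = 3.90e-08). IARS, for isoleucine, fell from 114 and 109 to 59.1 and 57.4. VARS, for valine, fell from 37.1 and 33.02 to 24.5 and 22.5. CARS, for cysteine, went down from 31.6 and 30.1 to 19.98 and 19.97. RARS, for arginine, rose from 37.5 and 37.2 to 45.02 and 43.7, a call lost without control replicate 1 or either knockout replicate (adjusted p up to 0.0726). DARS, for aspartate, was not called at 87.4 and 84.4 in control and 83.7 and 85.3 in knockout. LARS, IARS and VARS charge the branched-chain amino acids, which BCAT1 and BCAT2 break down. Of 16 mitochondrial synthetases 3 fell and 2 rose (7 and 2 on centred values); these falls numbered 5 without control replicate 2, and the rises 1 without either control replicate and 0 without knockout replicate 1.

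Translation factors fell in 23 of 48 members and rose in 2 (median -0.15). EIF3K went down from 158 and 157 to 112 and 104. EIF3L, like it a subunit of initiation factor 3, fell from 141 and 131 to 104 and 105. EIF2S3, which helps bring the initiator transfer RNA, went down from 197 and 186 to 135 and 141. The scaffold EIF4G3 fell from 36.9 and 32.8 to 22.2 and 22.6. Cytoplasmic ribosomal protein genes fell in 45 of 80 and rose in 2 (median -0.15). RPS12 fell from 979 and 926 to 544 and 534. RPLP0, of the ribosomal stalk, fell from 1006 and 956 to 640.3 and 587. RPL22L1, a paralog of RPL22, fell from 37.4 and 36.5 to 18.4 and 18.3. RPL10A rose from 784 and 745 to 882 and 860.4, a call lost without any 1 library other than control replicate 2 (adjusted p up to 0.0612). RPL41, the most abundant member not called, was at 1398 and 1504 in control and 1515 and 1489 in knockout. These are abundant messages with small changes, and the counts depended on how the libraries were scaled: 65 ribosomal protein genes were called lower on centred values, 22 after quantile normalization, 18 without a trend in the spread, 29 without knockout replicate 1 and 28 without knockout replicate 2. In the other direction, 14 were called higher after quantile normalization, 3 without control replicate 2, and 0 without a trend in the spread or without any 1 of the other 5 libraries. Many ribosomal protein genes also have near-identical pseudogenes that can share their reads. For translation factors the falls numbered 34 on centred values and 14 without knockout replicate 2, and the rises 1 without either knockout replicate.

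Nuclear transport genes fell in 22 of 51 members and rose in 3 (median -0.15). After XPOT came NUP210, a membrane nucleoporin, from 119.5 and 111 to 81.6 and 77.02. NUP155 went down from 27.7 and 26.04 to 17.8 and 17.1. The importin IPO5 went down from 101 and 96.04 to 72.2 and 71.97. The falls numbered 34 on centred values, 14 without knockout replicate 1 and 11 without knockout replicate 2, and the rises 0 without control replicate 1 or knockout replicate 1 and 1 without control replicate 2 or knockout replicate 2 or either rescue replicate. Genes of RNA polymerases I and III, which make ribosomal and transfer RNA, fell in 10 of 34 and rose in 6. POLR3G, a polymerase III subunit of dividing cells, fell from 5.33 and 4.38 to 2.51 and 3.18. Its paralog POLR3GL rose from 17.6 and 16.1 to 24.7 and 23.7. The polymerase falls numbered 17 on centred values, 6 without control replicate 1 and 3 without knockout replicate 2. Noncoding hosts of small nucleolar RNAs fell in 7 of 18 and none rose (median -0.20), for example SNHG8 from 132 and 129 to 92.1 and 87.6. SNHG5 fell from 288 and 288 to 227 and 217. SNHG1 was not called at 57.4 and 56.6 in control and 56.1 and 50.1 in knockout. Of 40 pseudouridine synthase and transfer RNA modification genes 7 fell and 3 rose (13 and 3 on centred values). Below PUS7, ADAT2, of the deaminase that makes inosine, fell by 0.49 on the log2 scale. NOP10, of the H/ACA particle, rose from 202 and 183 to 253 and 262.

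**Figure D4:**
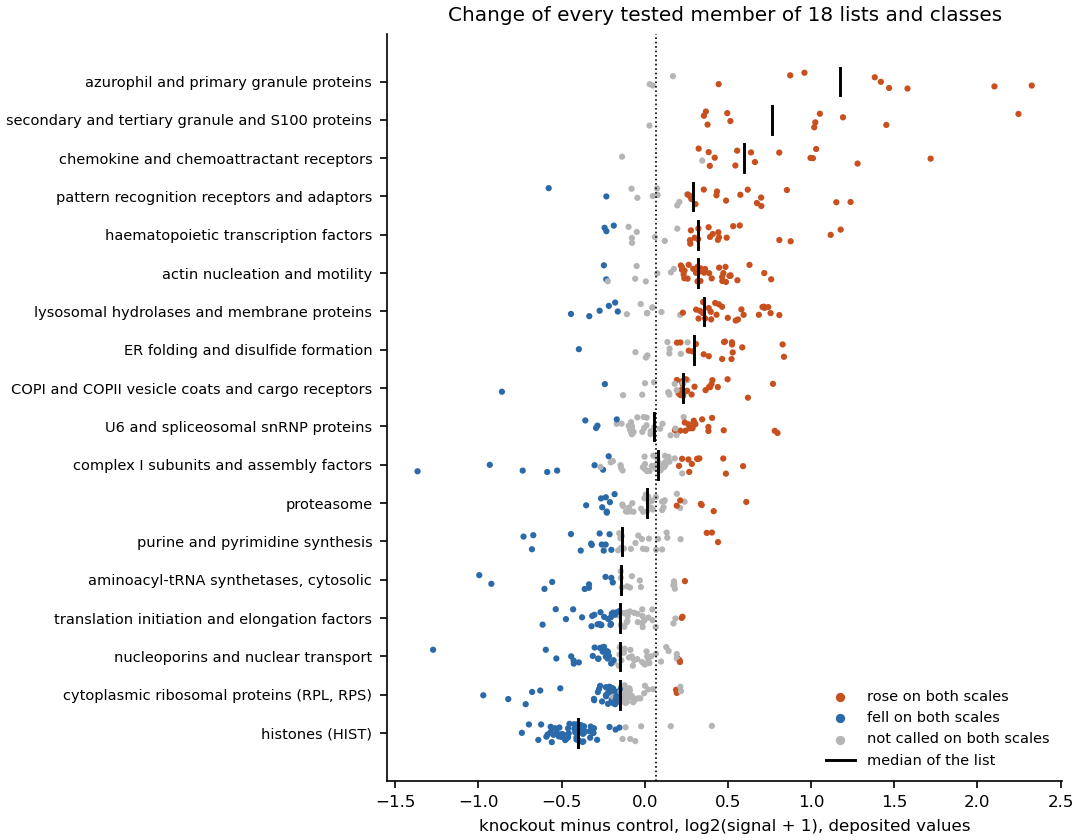
Each point is 1 tested member of a list or class, at its change in knockout against control on the log2(signal + 1) scale of the deposited values, orange where it rose and blue where it fell on both scales; bars are list medians and the dotted line the median of all genes, 0.067. Granule proteins reach above 2, and histones lie almost wholly to the left of the line around their median of -0.40.

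Purine and pyrimidine synthesis fell in 13 of 35 genes and rose in 3 (median -0.14). IMPDH2, the committed step to guanine nucleotides, fell from 165 and 154 to 97.02 and 94.7. ATIC, which closes the purine ring, fell from 64.7 and 63.8 to 39.2 and 40.3. PAICS, an earlier enzyme of that route, fell from 98.1 and 91.7 to 59.4 and 59.1. HPRT1, of purine salvage, fell from 59.1 and 53.7 to 43.2 and 42.7. Those that rose were RRM2B (0.44), UCK1 (0.40) and SAMHD1, which breaks down deoxynucleotides (0.37). TYMS, which makes thymidylate, was at 120.2 and 113 in control and 120.4 and 114 in knockout (0.01, adjusted p = 0.902). Of 22 METTL16 substrates and S-adenosylmethionine genes 10 fell and 2 rose (median -0.13), a list that holds METTL16 and MAT2A. CTH, which makes cysteine, fell from 10.2 and 8.94 to 4.23 and 4.70. AMD1, which diverts S-adenosylmethionine to polyamines, rose from 38.4 and 36.3 to 48.5 and 49.3. The rises of this list numbered 1 without control replicate 2 or either knockout replicate. The call of SAMHD1, whose signal is low, was lost without control replicate 1 or either knockout replicate (adjusted p up to 0.0961).

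Enzymes against oxidants rose in 9 of 34 members and fell in 3 (median 0.09; 9 and 8 on centred values). CAT, catalase, rose from 76.1 and 73.4 to 133 and 130.4. The selenoprotein GPX1 went up from 259.8 and 248 to 378 and 364. PRDX6 fell from 95.5 and 85.5 to 66.02 and 64.98, and GSTP1 was not called at 550.3 and 514 in control and 554 and 525 in knockout. Of 20 genes of sirtuins and NAD 7 rose and 3 fell (7 and 7 on centred values). BST1, a surface enzyme of myeloid cells, rose from 10.5 and 9.36 to 20.04 and 19.9. NAPRT, which makes NAD from nicotinic acid, rose from 14.5 and 12.2 to 23.4 and 21.6. NAMPT, which recycles nicotinamide, fell from 23.8 and 22.6 to 18.1 and 18.2. The falls numbered 1 without knockout replicate 2 here and 7 without control replicate 2 among the enzymes against oxidants. Of 8 tested genes of eicosanoid synthesis 2 rose and 1 fell. In the leukotriene pathway ALOX5AP rose from 28.1 and 24.9 to 42.2 and 43.9. LTA4H, a later enzyme, fell from 26.4 and 24.8 to 21.5 and 19.3, a call lost without knockout replicate 2 (adjusted p = 0.068).

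Mitochondrial gene groups moved in both directions, as did all genes tested (23.2% risen and 13.4% fallen). Complex I genes rose in 11 of 50 (22%) and fell in 8 (16%), near the shares over all genes. Their median was 0.08, and on centred values 11 rose and 14 fell. NDUFB9 rose from 255 and 258 to 368 and 353 and NDUFB8 fell from 81.7 and 77.9 to 42.7 and 40.1, so subunits of 1 complex changed in opposite directions. The complex I rises numbered 5 without control replicate 1, 6 without control replicate 2 and 4 without knockout replicate 1, and the falls 5 without knockout replicate 2. Mitochondrial ribosomal proteins rose in 13 of 80 and fell in 16 (27 on centred values). Protein import rose in 5 of 33 and fell in 7 (5 and 11 on centred values). HSPA9, the chaperone that pulls proteins in, fell from 174 and 164 to 134 and 136. Of 26 genes of mitochondrial transcription and RNA processing 1 rose and 4 fell (1 and 9 on centred values). LRPPRC, which stabilises mitochondrial messages, fell from 93.8 and 88.2 to 70.1 and 68.1. TFAM, which packs mitochondrial DNA, fell from 17.5 and 16.2 to 12.7 and 13.3. The proteasome had 6 of 41 risen and 8 fallen (median 0.01; 6 and 16 on centred values). Among the immune forms of its catalytic subunits PSMB10 rose from 16.2 and 16.2 to 25.8 and 24.8. PSMB8 fell from 56.8 and 52.4 to 42.4 and 42.7. Rises numbered 6 without control replicate 1, 4 without knockout replicate 1 and 8 without knockout replicate 2 for the mitochondrial ribosome and 2 without control replicate 1, 3 without control replicate 2 and 1 without knockout replicate 1 for import. Proteasome rises numbered 3 without control replicate 1 or knockout replicate 1, and falls 5 without control replicate 1 and 4 without knockout replicate 2.

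Among RNA processing genes, those of U6 and the spliceosomal small nuclear ribonucleoproteins had more rises than falls, as did all genes tested. In that list 19 of 51 rose and 4 fell (median 0.06, beside 0.067 over all genes). After centring 20 were called higher and 17 lower. PRPF3, which joins U4 to U6, rose from 42.4 and 39.8 to 70.6 and 72.2. U2AF1, which binds the end of introns, rose from 25.5 and 22.96 to 43.5 and 42.1. SF3B4 went up from 34.5 and 32.5 to 44.4 and 43.6. MEPCE, which caps the 7SK RNA, rose from 23.5 and 21.02 to 29.8 and 28.1. LARP7, which binds U6 and 7SK, fell from 15.3 and 13.05 to 11.2 and 10.4. SR proteins, hnRNPs and splicing kinases rose in 8 of 48 and fell in 3, but 20 were called lower after centring. RBM5, a splicing regulator, rose from 38.9 and 36.98 to 58.9 and 55.9. TRA2A fell from 49.3 and 44.2 to 32.7 and 33.2. HNRNPA1 and HNRNPK, the most abundant members not called, had log2 changes of 0.04 and -0.00. Of 27 genes of message export 8 rose and 2 fell (9 and 4 on centred values), the second fall being THOC2, of the same complex as THOC3, at -0.16, a call lost without any 1 library other than control replicate 2 (adjusted p up to 0.225). Decay genes rose in 13 of 54 and fell in 7 (20 on centred values). There EXOSC2, an exosome subunit, fell from 30.1 and 27.99 to 16.6 and 16.1, and the AU-rich element binding proteins ZFP36 and ZFP36L1 moved apart, ZFP36 rising from 8.42 and 7.12 to 12.03 and 12.2 and ZFP36L1 falling from 6.10 and 4.94 to 2.67 and 2.70. Other RNA methyltransferases rose in 8 of 46 and fell in 4 (8 and 7 on centred values). RNMT, which caps messages, fell from 17.2 and 15.8 to 8.73 and 8.88. FBL, the ribosomal RNA methyltransferase fibrillarin, fell from 184 and 182 to 148 and 137. With 1 library left out, rises of SR proteins and hnRNPs numbered 4 without control replicate 1 or knockout replicate 1 and 5 without knockout replicate 2 or either rescue replicate, and their falls 12 without control replicate 2. Decay genes had rises of 7 without knockout replicate 1 and falls of 12 without control replicate 2, and falls of message export genes numbered 1 without control replicate 1 or either knockout replicate or either rescue replicate and 4 without control replicate 2.

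Histone genes had the largest share of falls of any list or class with more than 1 tested member: 52 of 59 fell and none rose (median -0.40; 1 rose without control replicate 2), and between 49 and 53 were called lower when any 1 library was left out. HIST1H2BL went down from 743 and 707 to 438 and 429.5. HIST1H4I fell from 427 and 412 to 269 and 269. HIST1H2BJ fell from 705 and 682 to 466 and 470.5. HIST1H4D, with 287 and 249 in control and 265 and 262 in knockout, was among the members not called. Several histone genes code for the same protein and are alike in sequence, so their reads may be shared. Genes of cohesin, condensin and the kinetochore fell in 14 of 44 and rose in 5 (median -0.05), among them the checkpoint kinases BUB1 (55.8 and 53.8 to 34.7 and 34.8) and BUB1B (55.7 and 51.99 to 38.3 and 38.3) and NCAPG, of condensin (30.8 and 28.6 to 19.5 and 20.8). The falls numbered 23 on centred values, and the rises 2 without control replicate 1 or knockout replicate 1 or either rescue replicate, 3 without control replicate 2 and 0 without knockout replicate 2. Chromatin remodellers fell in 8 of 44 and rose in 5 (15 and 6 on centred values). SMARCA4, an ATPase of the SWI/SNF complex, fell from 47.3 and 43.1 to 35.99 and 34.7. Its paralog SMARCA2 rose from 28.8 and 27.9 to 32.6 and 33.99, a call lost without control replicate 1 or knockout replicate 2 (adjusted p up to 0.144). Remodeller falls numbered 5 without knockout replicate 2, and rises 1 without control replicate 1 or knockout replicate 2, 3 without control replicate 2 or either rescue replicate and 2 without knockout replicate 1. Histone methylation and Polycomb genes rose in 15 of 61 (24.6%) and fell in 9 (14.8%), near the shares over all genes. On centred values 16 rose and 18 fell. BMI1, a Polycomb protein of stem cells, rose from 162 and 138 to 216 and 223. DOT1L, the histone methyltransferase that MLL-rearranged leukaemias depend on, fell from 25.1 and 21.5 to 16.5 and 15.9. PRMT1, an arginine methyltransferase, went down from 85.8 and 80.8 to 60.6 and 55.9. Rises of histone methylation genes numbered 8 without either knockout replicate.

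Small RNAs held few calls, except that rises of Cajal body RNAs (24%) lay near the share over all genes. Of 122 tested SNORD genes, which guide ribose methylation of ribosomal RNA, 9 rose and 9 fell, of 101 SNORA genes, which guide pseudouridylation, 7 rose and 12 fell, and of 25 Cajal body RNAs 6 rose. SNORD3A, the U3 RNA and 1 of the 4 most abundant RNAs in the table, was not called at 60914 and 58946 in control and 65232 and 63089.9 in knockout. SNORD76 fell from 180.04 and 201 to 100.01 and 133, with the knockout libraries further apart than the controls. Of 79 precursors of microRNAs 5 rose and 8 fell, and several carry values identical to those of a copy, as MIR3648-1 and MIR3648-2 do at 88.7 and 83.98 in control and 71.1 and 60.3 in knockout. MIR3687-1 and its copy MIR3687-2, named after their values were seen, had the lowest log2 change of the table at -4.96. They went from 743 and 278 to 0.922 and 111, with rescue libraries at 302 and 295. The control libraries thus lay far apart, and the knockout libraries further still. With 1 library left out, SNORD rises numbered 14 without control replicate 2 and falls 14 without knockout replicate 1. SNORA falls numbered 7 without control replicate 1, and Cajal body RNA rises 3 without control replicate 1 and 2 without knockout replicate 1. MicroRNA precursor rises numbered 3 without control replicate 1, 14 without control replicate 2 and 8 without either rescue replicate and falls 3 without control replicate 1. Long intergenic RNAs rose in 16 of 113 and fell in 19, and these rises numbered 10 without control replicate 1, 5 without control replicate 2 or knockout replicate 2 and 2 without knockout replicate 1. Antisense RNAs rose in 26 of 326 and fell in 42 (65 falls on centred values, 15 rises without knockout replicate 1 or control replicate 1, 27 falls without knockout replicate 2); whether the counting used the strand of the library kit is not given in the sources used here. Examples with higher signal were OIP5-AS1, down from 74.1 and 68.03 to 53.7 and 53.8, and MBNL1-AS1, up from 8.46 and 7.51 to 14.9 and 15.8.

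Zinc finger genes rose in 47 of 333 (14.1%) and fell in 44 (13.2%, near the share over all genes), with 84 falls on centred values. ZNF121 fell from 46.5 and 44.4 to 30.6 and 28.2 and ZNF703 rose from 21.3 and 18.5 to 29.5 and 28.7. Solute carriers rose in 52 of 198 (26.3%, near the share over all genes) and fell in 36 (18.2%), with 59 falls on centred values. The zinc carrier SLC39A7 rose from 39.8 and 39.6 to 62.7 and 57.8 and the lactate carrier SLC16A3 from 39.7 and 41.5 to 60.7 and 55.3. SLC5A6, which takes up biotin and pantothenate, fell from 27.8 and 25.3 to 18.2 and 17.8. Zinc finger rises numbered 29 without control replicate 2, 21 without knockout replicate 1 and 27 without knockout replicate 2 and falls 23 without knockout replicate 1 and 28 without knockout replicate 2, and solute carrier rises 33 without control replicate 2 and 30 without knockout replicate 1.

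Direction also followed the base composition of the transcript. When 11000 tested protein-coding genes were split into 5 equal groups by the GC content of their longest transcript, 344, 457, 585, 691 and 704 of 2200 rose from the lowest to the highest group and 365, 363, 305, 249 and 192 fell, with median log2 changes from 0.00 to 0.16. The relation was steepest in 1 library. In knockout replicate 1 the median deviation from the gene mean, on centred log2 values, ran from -0.059 in the lowest GC group to 0.089 in the highest, against -0.012 and 0.018 in knockout replicate 2. In the controls it ran the other way, from 0.025 to -0.035 in replicate 1 and from 0.038 to -0.033 in replicate 2. Without knockout replicate 1 the rises numbered 215, 267, 346, 409 and 386 and the falls 199, 225, 229, 197 and 169, so falls no longer declined steadily. Without knockout replicate 2 the rises numbered 190, 284, 406, 549 and 605 and the falls 240, 226, 207, 154 and 111, and the fall count of the lowest group was 238 without control replicate 1. The part of GC content in the counts of any list was not tested. Median GC content was 49.8% for azurophil granule genes, 52.1% for actin genes, 50.2% for folding genes and 45.2% for vesicle coats, beside 48.4% over all genes tested, and 43.3% for nuclear transport, 46.2% for translation factors and 59.1% for histones. Rises were fewer among long transcripts: 617 of 2200 rose in the shortest of 5 equal groups and 438 in the longest. Median GC content was 53.5% in that shortest group and 43.7% in the longest, so these counts cannot tell length from GC content.

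**Figure D5:**
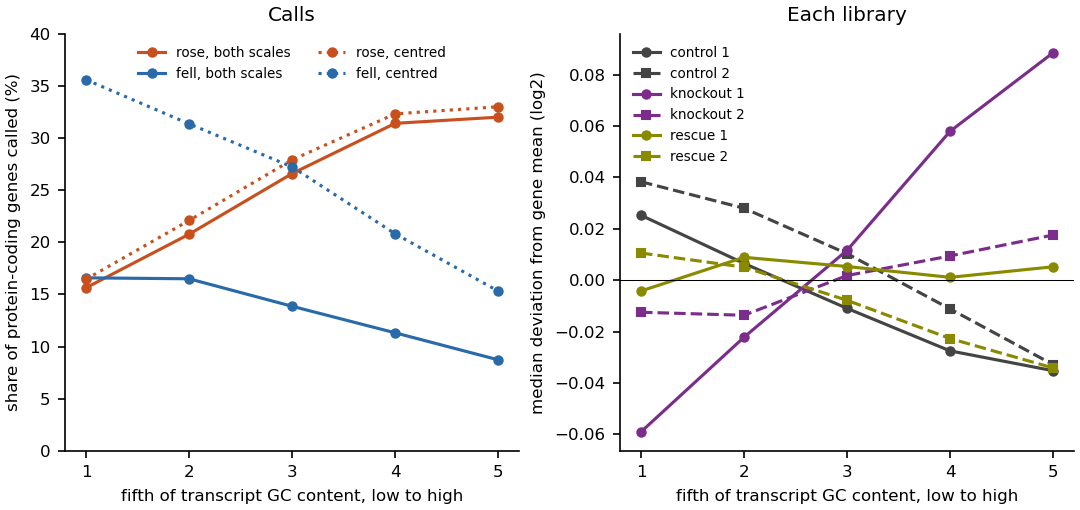
Left, share of protein-coding genes that rose (orange) or fell (blue) in 5 equal groups by transcript GC content, for calls on both scales (solid) and on centred values alone (dotted). Right, median deviation of each library from the gene mean on centred log2 values, where knockout replicate 1 spans -0.059 to 0.089 and knockout replicate 2 -0.012 to 0.018.

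Genes beside the edited locus did not move as a block. Within 1 Mb of METTL16 22 genes were tested, of which 6 rose and 2 fell, METTL16 itself being 1 of the fallen, with a median log2 change of 0.04. The other, named here for its position, was TSR1, a factor of ribosome assembly, from 27.4 and 24.9 to 23.1 and 22.1. The largest rises among these neighbours, named after their values were seen, were RILP, a lysosomal adaptor, from 0.845 and 0.916 to 2.09 and 1.87, and RAP1GAP2, a regulator of Rap1, from 7.63 and 6.90 to 11.9 and 11.2. Of 29 tested genes between METTL16 and the end of the short arm of chromosome 17, 6 rose and 1 fell.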

How the data were processed

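The values are signals, abundances per gene that the authors deposited for 6 libraries; STAR, RSEM and GRCh38 are named, per the submitters' processing notes, and the abundance kind, versions and strand setting are not given in the sources used here. The members and gene lists were chosen with earlier results of these data known. Genes reaching a signal of 1 in 2 or more libraries entered the test, where log2(signal + 1) was analysed with limma 3.58.1 in R 4.3.3 (trended variance, 1 fit of all 6 libraries with no covariate, contrast knockout minus control, two-sided, Benjamini-Hochberg over all 12734 genes, 0.05), on deposited and on centred values. Log2 changes are on that scale, which understates changes of low genes, and multiples of the control level are ratios of mean signals. Every adjusted p in the text comes from this test, on deposited values unless stated, or from its refit without the library or libraries named. The fit was tested on simulated data.

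Genes named are METTL16, MAT2A, BCAT1 and BCAT2, the 20 largest changes per direction called on both scales with groups that do not overlap, a higher-group mean of at least 5 and no small-RNA symbol, up to 4 members per list and direction with the smallest p, and up to 2 most abundant members passing on neither scale; exceptions are marked. Some genes that this rule picked are not reported here. Symbols were matched to GENCODE release 29 (14089 genes), from which transcript length, GC content and sites were read, and to RefSeq promoters with GRCh38.p14 coordinates (9121 tested genes). Alternatives were other scalings, pseudocounts, filters, a replicate block and each library left out. Python 3.11.15 was used for summaries.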

Additional observations from a re-analysis of the deposited data

How the results depend on the processing

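The number of fallen genes depended most on scaling: 1723 on deposited values, 3208 on centred ones and 3187 after quantile normalization, which gives 3187 on both scales too. Of the 4663 genes called on both scales, quantile normalization kept 4527 and called 3 in the opposite direction. With each of the 6 libraries left out in turn, genes risen ranged from 2065 (without knockout replicate 1) to 4127 (without control replicate 1), genes risen on both scales from 1723 (without knockout replicate 1) to 2739, and genes fallen on both scales from 1107 (without knockout replicate 2) to 2213 (without control replicate 2). A group left with 1 library is assumed there to vary like the others. Of 467 called genes that the naming rule picked, the number losing significance was 65 without knockout replicate 1, 64 without knockout replicate 2, 52 without control replicate 1, 22 without any 1 of the other 3, 23 with only control and knockout libraries, 20 without a trend in the spread and at most 4 with the other pseudocount, filters, scalings or protein-coding genes only; none changed direction.

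Deviations of same-numbered libraries from their group means, on centred values, correlated at -0.011, -0.048 and 0.10. With 2 libraries per group and library-wide shifts removed, these values cannot tell whether the replicate numbers pair the libraries. A fit with the replicate number as a block called 3600 risen and 1875 fallen genes on deposited values and 2958 and 1787 on both scales, and 5 picked genes lost significance. Count tests were not run because the values are not counts.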

Other observations

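Genes of fat and iron handling moved in both directions within lists, as did all genes tested. Of 37 genes of peroxisomes and fatty acid oxidation 6 rose and 7 fell (6 and 16 on centred values). ACAA1 and HSD17B4, which break down fatty acids in peroxisomes, rose from 15.96 and 15.7 to 29.5 and 28.2 and from 73.9 and 68.3 to 98.2 and 97.8. CPT1A, which admits fatty acids to mitochondria, and the mitochondrial dehydrogenase ACADM fell from 18.6 and 17.5 to 14.5 and 14.6 and from 26.3 and 24.2 to 18.1 and 17.9. The falls of that list numbered 4 without knockout replicate 1 and 3 without knockout replicate 2. Phospholipid and sphingolipid genes rose in 12 of 37 and fell in 2 (12 and 7 on centred values), with CHKB, a choline kinase, rising from 8.50 and 7.45 to 16.5 and 14.2. PTDSS1, which makes phosphatidylserine, went from 102 and 97.03 to 86.3 and 82.6; the rises numbered 7 without knockout replicate 1, and the falls 5 without control replicate 2. Genes of iron, haem and iron-sulphur clusters rose in 8 of 33 (24.2%, near the share over all genes) and fell in 7 (8 and 10 on centred values). In haem synthesis ALAS1, the first enzyme, rose from 33.2 and 31.5 to 44.1 and 43.9. FECH, the last, fell from 9.82 and 9.24 to 6.93 and 6.68. NCOA4, which carries ferritin to lysosomes, rose from 74.5 and 72.7 to 113 and 115, and FTL, the light chain of ferritin, was not called at 3263 and 3055 in control and 3256 and 3264 in knockout.

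Parts of the transcription machinery moved in both directions, as did all genes tested. Mediator and RNA polymerase II genes rose in 14 of 43 and fell in 5 (median 0.11; 15 and 8 on centred values); with 1 library left out the rises numbered 9 without knockout replicate 1 and 8 without knockout replicate 2, and the falls 3 without control replicate 1 or knockout replicate 1 or either rescue replicate and 2 without knockout replicate 2. CCNC, the cyclin of the Mediator kinase module, fell from 22.3 and 21.1 to 12.9 and 13.7. MED1, which binds nuclear receptors, went from 23.8 and 22.7 to 15.7 and 16.3. MED19 rose from 10.99 and 10.3 to 15.2 and 15.5. Of 20 selenoprotein genes 7 rose and 3 fell (4 without knockout replicate 1 for the rises, 1 without control replicate 1 or either knockout replicate or either rescue replicate for the falls). SEPHS2, which makes the selenium donor, rose from 41.2 and 39.2 to 52.7 and 50.8. SECISBP2, which reads the selenocysteine signal in messages, fell from 13.5 and 12.3 to 10.8 and 10.96, a call lost without any 1 library other than control replicate 2 (adjusted p up to 0.183). Among progenitor surface markers 3 of 8 rose and none fell, among them SPN, the sialoglycoprotein CD43, from 37.4 and 33.8 to 59.1 and 54.96. Of the 4 tested genes of class II antigen presentation 1 rose and 1 fell. The one that fell was RFXAP, a factor of their promoters, from 8.37 and 8.10 to 5.45 and 5.19.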
